A study of Mus musculus with 9 samples.

Results

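The genes described here were 48 genes of the cell division cycle, found by symbol among the 15158 genes of a table of expression values from mouse uterine luminal epithelium. All 48 were in the table. By the role each protein is known for, 22 were classed as replication genes, 6 as genes of entry into S phase and 20 as mitosis genes. Histone genes were not included.

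Luminal epithelium was captured by laser on pregnancy day 4 from females that had been mated after being housed with littermates until 8 weeks of age, and its RNA was sequenced. There were 3 genotypes with 3 bioreplicates each, giving 9 libraries. The controls, Wnt7acre, carried cre recombinase only, ePRAoe mice were Wnt7acre/+PgrALsL/+ and overexpressed progesterone receptor isoform A, and ePRBoe mice were Wnt7acre/+PgrBLsL/+ and overexpressed isoform B. The Wnt7acre allele, which is active in epithelium, was thus present in all 3 groups, and no group was free of cre. The labels number bioreplicates and name no animals, so the p-values measure only the spread between these samples, which may be technical.

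Progesterone is known to hold back division of the luminal epithelium before an embryo attaches, while estrogen drives it. Before a cell divides, cyclin and kinase pairs release E2F factors, E2F factors switch on the genes that copy DNA, and a later group of genes, which builds the spindle and separates the chromosomes, is switched on in G2 and mitosis. Replication transcripts and mitosis transcripts therefore belong to successive parts of the cycle and can be measured apart from each other.

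The table gave FPKM, by definition fragments divided by gene length and by library depth. This scale sets levels of genes and of libraries side by side, but does not make the sums of libraries equal. Sums of FPKM were 272213 to 314010 per library, and 11074 to 12300 genes reached 1 FPKM. No counts were given. From the steps between low values, the libraries held a median of about 11.7 M reads over 378 genes. A mitosis gene then had a median of about 42 reads in its lowest library and about 218.5 in its highest. A replication gene had a median of about 212 in its lowest library. These estimates take 1 step per gene for all 9 libraries, so they rest on a shared depth, and the depth of single libraries is not known. All 16 markers of luminal epithelium were above 1 FPKM in every library. Pgr, which encodes the progesterone receptor, had 17.4, 3.82 and 6.62 FPKM in the Wnt7acre libraries 1 to 3, 41.7, 49.5 and 42.8 in ePRAoe and 38.1, 38.3 and 45.9 in ePRBoe. Its level was higher in every ePRAoe and ePRBoe library than in every control (exact permutation test, two-sided p = 0.1 for either genotype, the smallest that 3 against 3 allows), but these values are per gene and do not tell the isoforms apart. By a code and date in the labels, taken as the sequencing run, Wnt7acre 3, ePRAoe 2 and all 3 ePRBoe libraries came from run 1, Wnt7acre 2 and ePRAoe 3 from run 2, and Wnt7acre 1 and ePRAoe 1 from run 3. Run was a term in every limma fit unless a setting says otherwise, so comparisons of ePRBoe lean on the run 1 libraries Wnt7acre 3 and ePRAoe 2.

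In the control epithelium, transcripts for copying DNA were more abundant than those for mitosis. The median replication gene had a mean of 8.5 FPKM in Wnt7acre (range 1.17 for Cdc6, which loads the replicative helicase, to 52.2 for Pcna, the sliding clamp of DNA polymerase), and 15 of 22 reached 5 FPKM. The median mitosis gene had 1.78 FPKM (range 0.502 for Bub1, a spindle checkpoint kinase, to 14.2 for Top2a, the topoisomerase that untangles chromosomes), and 3 of 20 reached 5 FPKM. In ePRBoe the median mitosis gene stood at 4.29 FPKM, against 1.82 in ePRAoe. The median replication gene stood at 8.67 FPKM in ePRBoe and 6.25 in ePRAoe.

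**Figure D1:**
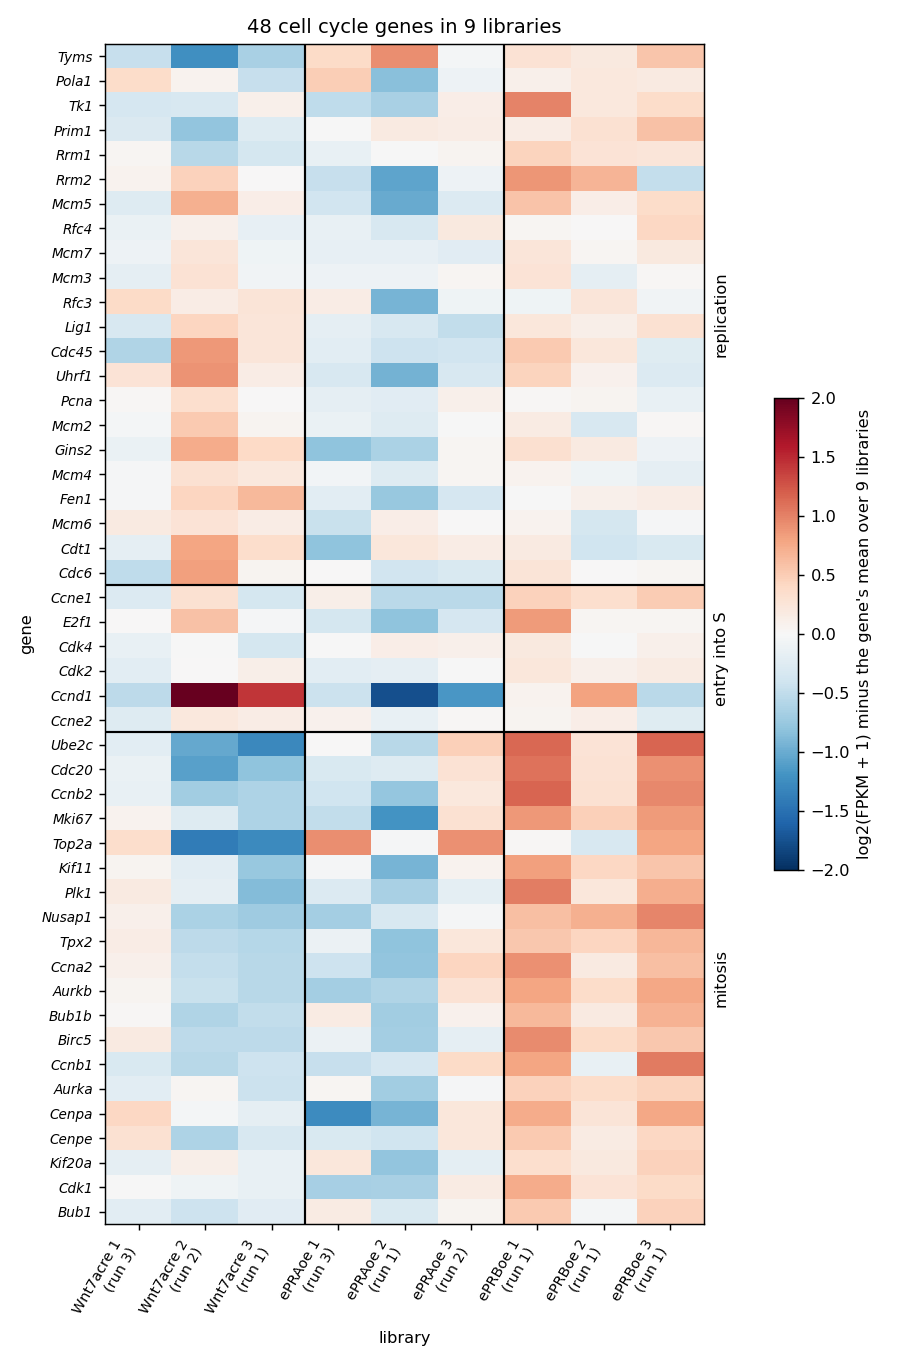
Each row is 1 of the 48 genes and each column 1 of the 9 libraries, and colour is log2(FPKM + 1) minus the gene's mean over the 9 libraries, with the scale ending at 2 in either direction. The block of mitosis genes in the 3 ePRBoe libraries is mostly red, while the replication block above it shows no such run of 1 colour.

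In the epithelium that overexpressed isoform B, mitosis genes were the class with the most calls, all of them upward. Of 20 mitosis genes, 9 rose in ePRBoe against Wnt7acre (adjusted p of at most 0.05 in limma, on log2(FPKM + 1), over all tested genes), where 6.41% of 12347 tested genes rose and 2.48% fell (8.89% in either direction), and no mitosis gene fell. All 20 had a positive log2 fold change, where 59.5% of all tested genes did. The median of the 20 was 1.24 and the range 0.71 to 2.19, against a median of 0.10 over all genes. In 17 of the 20, every ePRBoe library was above every control library, where 23.5% of all tested genes were. Of 21 replication genes tested, 0 were called in the same comparison by limma, 5 had an unadjusted p under 0.05, where 25.8% of all tested genes did, and their median log2 fold change was 0.09. Without the run term, this contrast of 9 mitosis and 0 replication genes became 4 and 3, the latter Tyms, Prim1 and Rrm1. That fit called 14.5% of all tested genes in either direction, against 8.89% with the run term.

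**Figure D2:**
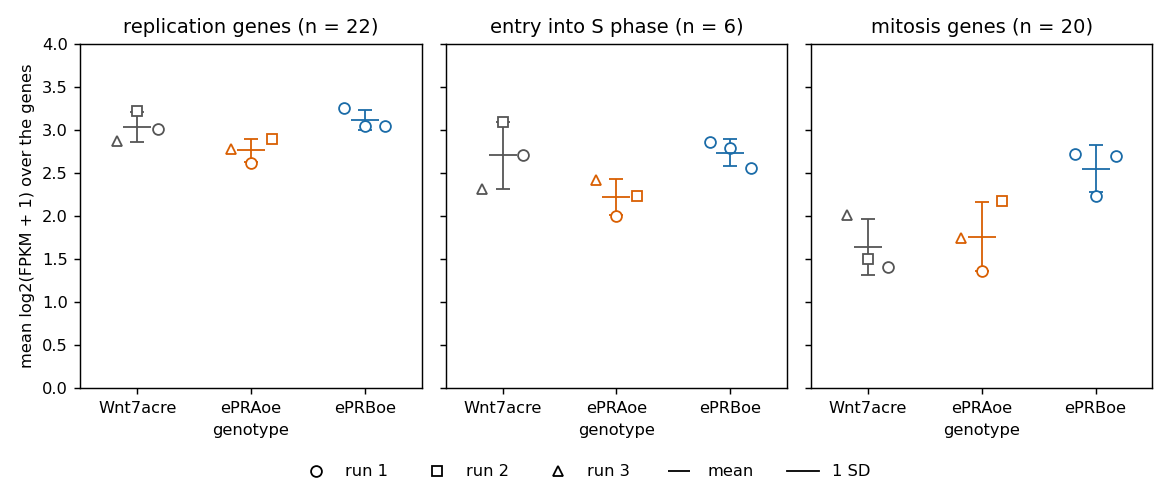
Points are libraries, marked by sequencing run, at the mean log2(FPKM + 1) over the genes of a class; the bar is the group mean and the whisker 1 SD (n = 3). For mitosis genes the 3 ePRBoe libraries, at 2.23 to 2.72, lie above all controls, at 1.41 to 2.01, while for replication genes the ePRBoe and control libraries overlap.

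Kif11 and Ube2c had the smallest p among the mitosis genes. Ube2c (mm10 chr2:164769898-164778822), the ubiquitin-conjugating enzyme with which the anaphase-promoting complex marks cyclin B for destruction, had 13.1, 7.02 and 5.72 FPKM in the Wnt7acre libraries 1 to 3, 15.5, 10.1 and 21.7 in ePRAoe and 35.1, 18.7 and 35.8 in ePRBoe. Every ePRBoe library was above every control, and the lowest ePRBoe library was below the highest ePRAoe library. The rise over controls was 2.19 ± 0.38 (SE) on the log2 scale, or 4.56-fold (adjusted p = 0.0152). Of the exonic length of Ube2c, 22.8% is shared with Tnnc2 on the other strand, and the strand setting of the counting is not stated. Kif11 (mm10 chr19:37376403-37421859), the kinesin that pushes the spindle poles apart, had 2.78, 2.15 and 1.15 FPKM in the Wnt7acre libraries 1 to 3, 2.57, 0.915 and 2.82 in ePRAoe and 5.42, 3.85 and 4.34 in ePRBoe. Its 3 ePRBoe libraries were above all 6 others, and the rise over controls was 1.44 ± 0.23 on the log2 scale, or 2.72-fold (adjusted p = 0.0125). With no run term, the log2 value of Kif11 was 0.90 and did not pass (adjusted p = 0.082), while Ube2c passed in all 12 settings other than those that left out a library. These folds are of FPKM + 1 and understate the change of genes at low level.

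The promoters of genes that move together in the cycle are known to share short elements, and those of the leading genes are printed for that reason. Mitosis genes are often controlled through a CHR element, bound by the complex that holds them silent in resting cells, next to CCAAT boxes, bound by NF-Y. Replication genes are often controlled through E2F sites. RefSeq promoters (GRCm38.p6, 250 bases before to 50 after a start) were matched for 20 of 22 replication genes, 4 of 6 genes of entry into S phase and 16 of 20 mitosis genes, and searched on both strands. The letters TTTGAA counted as a CHR match, and so did the palindrome spelled TTCGAA. A box was spelled CCAAT in the search, and the E2F matches were TTTCCCGC, TTTGGCGC, TTTCGCGC and TTTGCCGC. A match is a description of letters and not a site shown to be bound. The bases before the start are given 5′ to 3′ on the strand of the gene, with bases of annotated exons left out and matches in capitals.
Kif11, chr19:37376132-37376381, plus strand: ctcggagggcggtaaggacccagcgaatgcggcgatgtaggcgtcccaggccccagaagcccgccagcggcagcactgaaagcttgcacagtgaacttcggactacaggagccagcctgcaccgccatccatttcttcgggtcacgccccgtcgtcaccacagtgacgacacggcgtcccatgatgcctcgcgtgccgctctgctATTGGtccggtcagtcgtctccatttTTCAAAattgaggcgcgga
Ube2c, chr2:164769679-164769897, plus strand: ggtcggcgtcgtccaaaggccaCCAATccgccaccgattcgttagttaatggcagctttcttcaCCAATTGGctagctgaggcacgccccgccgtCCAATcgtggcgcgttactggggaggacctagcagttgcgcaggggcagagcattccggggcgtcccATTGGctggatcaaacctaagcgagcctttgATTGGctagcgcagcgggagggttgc
The capitals in Kif11 are a CCAAT box (read on the other strand) and, closest to the start, a CHR match. The capitals in Ube2c are CCAAT boxes on both strands, a pair of which overlap. Its CHR match lies nearer to the RefSeq start but past the gene start given above, so it is beyond the printed stretch. That match is in the line for Ube2c among the windows that follow, from which exonic bases were not left out.

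Of 16 mitosis gene promoters, 12 (75%) held a CHR match and all of these 12 held a CCAAT box as well, while 7.53% of all 32851 promoters and 5.58% of the 12323 promoters of tested genes held both. An E2F match was present in 1 of the 16 (6.25%). Windows around a CHR match in further mitosis genes are shown so that the element can be compared between them, with the match in capitals. The first 5 belong to a proliferation marker, the topoisomerase, a cyclin, its kinase and a checkpoint kinase.
Mki67, chr7:135716462-135716487, minus strand: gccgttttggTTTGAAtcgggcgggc
Top2a, chr11:99024197-99024222, minus strand: tagataaaggTTCAAAtgaaactagg
Ccnb2, chr9:70421706-70421731, minus strand: gggactagaaTTTGAAaataagactg
Cdk1, chr10:69352968-69352993, minus strand: gattggctccTTTGAAcgtctacgtg
Bub1b, chr2:118598013-118598038, plus strand: tctccctgggTTCGAAggcttgtctt
Cdc20, chr4:118437346-118437371, minus strand: acagttgggtTTTGAAggagccaatg
Ube2c, chr2:164769890-164769915, plus strand: agggttgcaaTTCAAAcgcgggcggc
Among these 7, the genes Cdk1, Cdc20 and Top2a were not called in ePRBoe against Wnt7acre and the other 4 were.

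The cyclin Ccnb2 and the kinases Plk1 and Aurka were among the called genes in ePRBoe, while Ccna2, Ccnb1, Cdk1 and Aurkb were not. Mki67, which coats mitotic chromosomes and encodes the proliferation marker Ki-67 (mm10 chr7:135689784-135716361), had 7.36, 5.65 and 4.19 FPKM in the Wnt7acre libraries 1 to 3, 4.67, 2.49 and 8.88 in ePRAoe and 13.5, 10.1 and 13.5 in ePRBoe. All ePRBoe libraries exceeded all others, and the rise over controls was 1.54 ± 0.31 on the log2 scale, or 2.92-fold (adjusted p = 0.0242). Ccnb2, cyclin B2, had 3.9, 2.32 and 2.52 FPKM in the Wnt7acre libraries 1 to 3, 3.11, 2.17 and 5.23 in ePRAoe and 11, 5.67 and 9.47 in ePRBoe. It was again highest in the 3 ePRBoe libraries and rose 3.00-fold (adjusted p = 0.0394). Plk1, a kinase that starts spindle assembly, had 2.61, 1.82 and 0.756 FPKM in the Wnt7acre libraries 1 to 3, 1.65, 1.03 and 1.79 in ePRAoe and 5.49, 2.75 and 4.29 in ePRBoe. It rose 2.60-fold (adjusted p = 0.0331), with no overlap between ePRBoe and controls. Aurka, the kinase of the spindle poles, had 1.81, 2.35 and 1.42 FPKM in the Wnt7acre libraries 1 to 3, 2.35, 1 and 2.19 in ePRAoe and 3.5, 3.19 and 3.42 in ePRBoe. Its rise of 1.96-fold (adjusted p = 0.0326) was the smallest among the 9 called genes.

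Genes that watch over chromosome attachment and shape the spindle made up the rest of the called set. Tpx2, which activates Aurka on spindle microtubules, had 2.51, 1.2 and 1.11 FPKM in the Wnt7acre libraries 1 to 3, 1.92, 0.801 and 2.68 in ePRAoe and 3.57, 3.26 and 4.02 in ePRBoe. It rose 2.43-fold (adjusted p = 0.0352), and its ePRBoe libraries were above all 6 others. Birc5, survivin of the chromosomal passenger complex, had 1.58, 0.578 and 0.579 FPKM in the Wnt7acre libraries 1 to 3, 1.09, 0.423 and 1 in ePRAoe and 3.36, 1.96 and 2.29 in ePRBoe. It rose 2.30-fold (adjusted p = 0.0392) from a level under 1 FPKM in 2 of 3 controls. Bub1b, a spindle checkpoint protein, had 1.72, 0.766 and 0.891 FPKM in the Wnt7acre libraries 1 to 3, 1.99, 0.642 and 1.82 in ePRAoe and 3.19, 2.01 and 3.34 in ePRBoe. It rose 2.31-fold (adjusted p = 0.0455), the weakest support among the 9.

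The other 11 mitosis genes did not pass in ePRBoe against Wnt7acre, although their log2 fold changes were all positive. Ccnb1, cyclin B1, had 1.18, 0.82 and 1.02 FPKM in the Wnt7acre libraries 1 to 3, 0.952, 1.12 and 2.5 in ePRAoe and 3.64, 1.41 and 4.53 in ePRBoe. The 3 ePRBoe libraries were above the controls, but ePRBoe 2 was below ePRAoe 3, and the log2 fold change was 1.08 ± 0.43 (adjusted p = 0.167). Cdk1, the kinase that cyclin B activates, had 1.83, 1.7 and 1.59 FPKM in the Wnt7acre libraries 1 to 3, 0.798, 0.824 and 2.21 in ePRAoe and 3.77, 2.47 and 2.74 in ePRBoe. Its ePRBoe libraries were above all 6 others, and its log2 fold change over controls was 0.71 ± 0.29 (adjusted p = 0.172). Cdc20, the activator of the anaphase-promoting complex, lay just past the threshold at a log2 fold change of 1.59 (adjusted p = 0.0507), as did Nusap1, a spindle protein, at 1.30 (adjusted p = 0.0576). Values for Aurkb, Ccna2 and Top2a were 1.22, 1.25 and 1.5, and those for Cenpa, Cenpe, Kif20a and Bub1 were 0.71 to 0.79. Kif20a shares 29.3% of its exonic length with Cdc23 on the other strand.

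**Figure D3:**
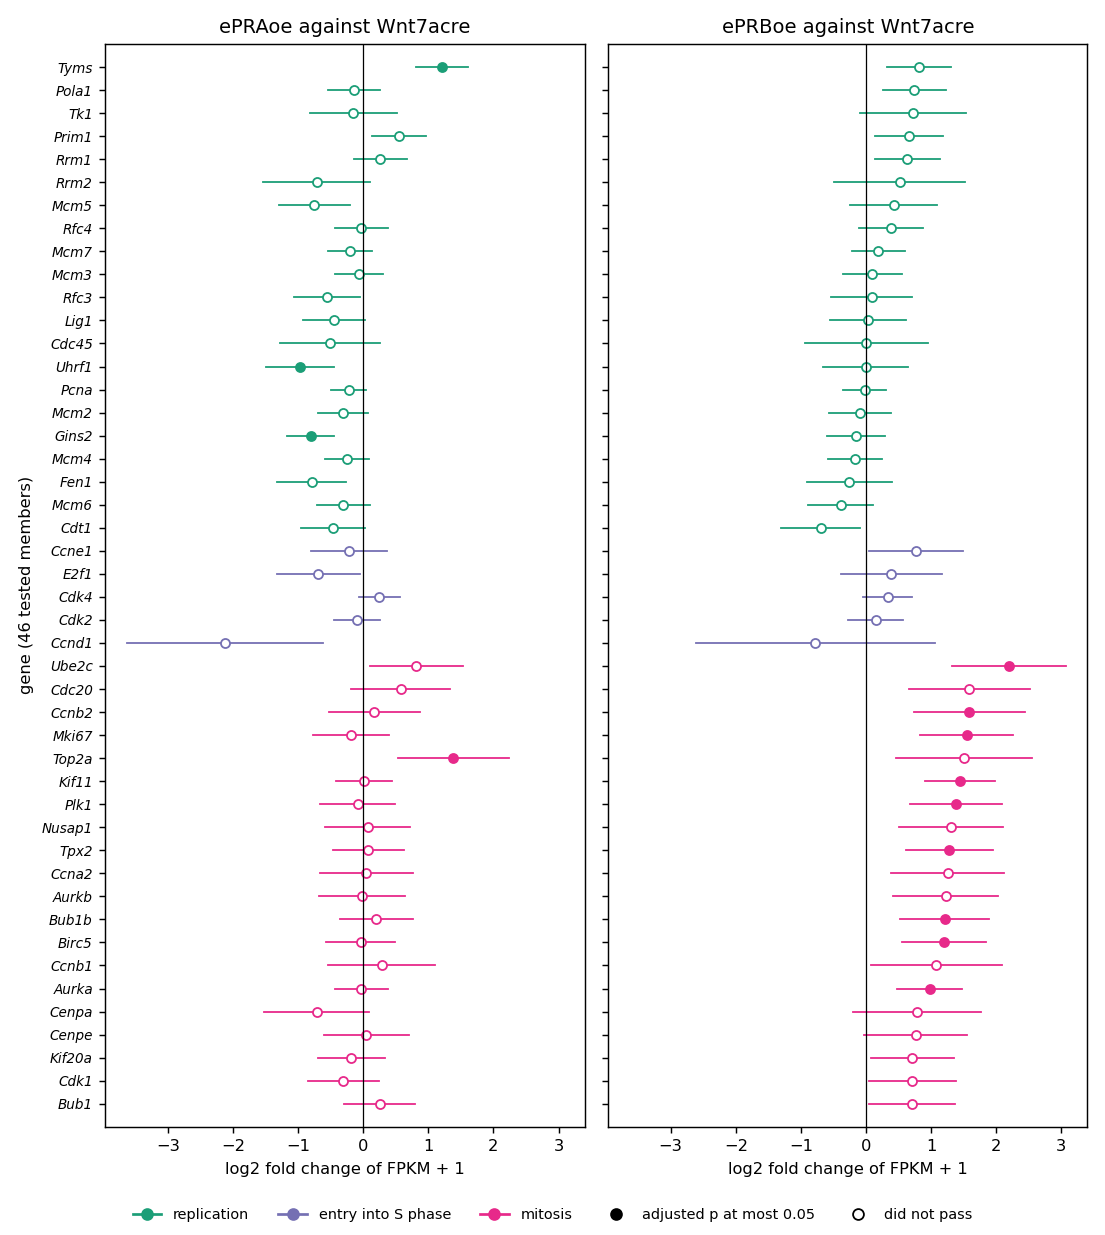
Points are log2 fold changes of FPKM + 1 for the 46 tested genes in each genotype against Wnt7acre, lines are 95% intervals, colour is the class and filled points passed at an adjusted p of at most 0.05. The 20 mitosis genes all lie right of 0 in ePRBoe and on both sides of it in ePRAoe.

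The count of 9 depended on the terms and the libraries of the fit, while every tested mitosis gene stayed positive in each setting run. With no run term, 2 of the 9 calls were kept (Ccnb2 and Ube2c), and the median of the 20 genes was 0.90. Without Wnt7acre 3 or without ePRAoe 2, none of the 48 genes was called in ePRBoe against Wnt7acre, where 1.89% and 2.97% of all tested genes were. Yet all 20 mitosis genes stayed positive in these fits, with medians of 1.30 and 1.13. Without ePRBoe 1 or ePRBoe 3 there were 2 called, Kif11 and Ube2c, and without ePRBoe 2 there were 4. These fits called 4.78%, 3.92% and 3.26% of all tested genes. Without Wnt7acre 2, 5 were called, and without Wnt7acre 1 or ePRAoe 1 there were 14 members called, 12 of them mitosis genes. The shares of all tested genes called were 7.84% without Wnt7acre 2, 12.7% without Wnt7acre 1 and 13.1% without ePRAoe 1. Within run 1 alone, the 20 mitosis genes were all higher in the mean of ePRBoe than in Wnt7acre 3, by a median of 1.13 on the log2 scale. The median of replication genes in that run was -0.03, with 10 of 21 positive. With other scalings of the libraries the median of all genes moved from 0.10 to -0.03, and the median of mitosis genes from 1.24 to 1.13 (median-of-ratios factors) or 0.95 (quantile normalization). Rescaling each library to the same sum, set above that of any library, gave 0.13 for all genes and 1.61 for mitosis genes. This raised every value while the added 1 stayed the same, and 14068 genes then passed the filter. Without rescaling, adding 0.5 or 0.1 in place of 1 gave medians of 1.52 and 1.71 for mitosis genes. The rescaled fit therefore cannot separate the scaling of libraries from the weight of the added 1.

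**Figure D4:**
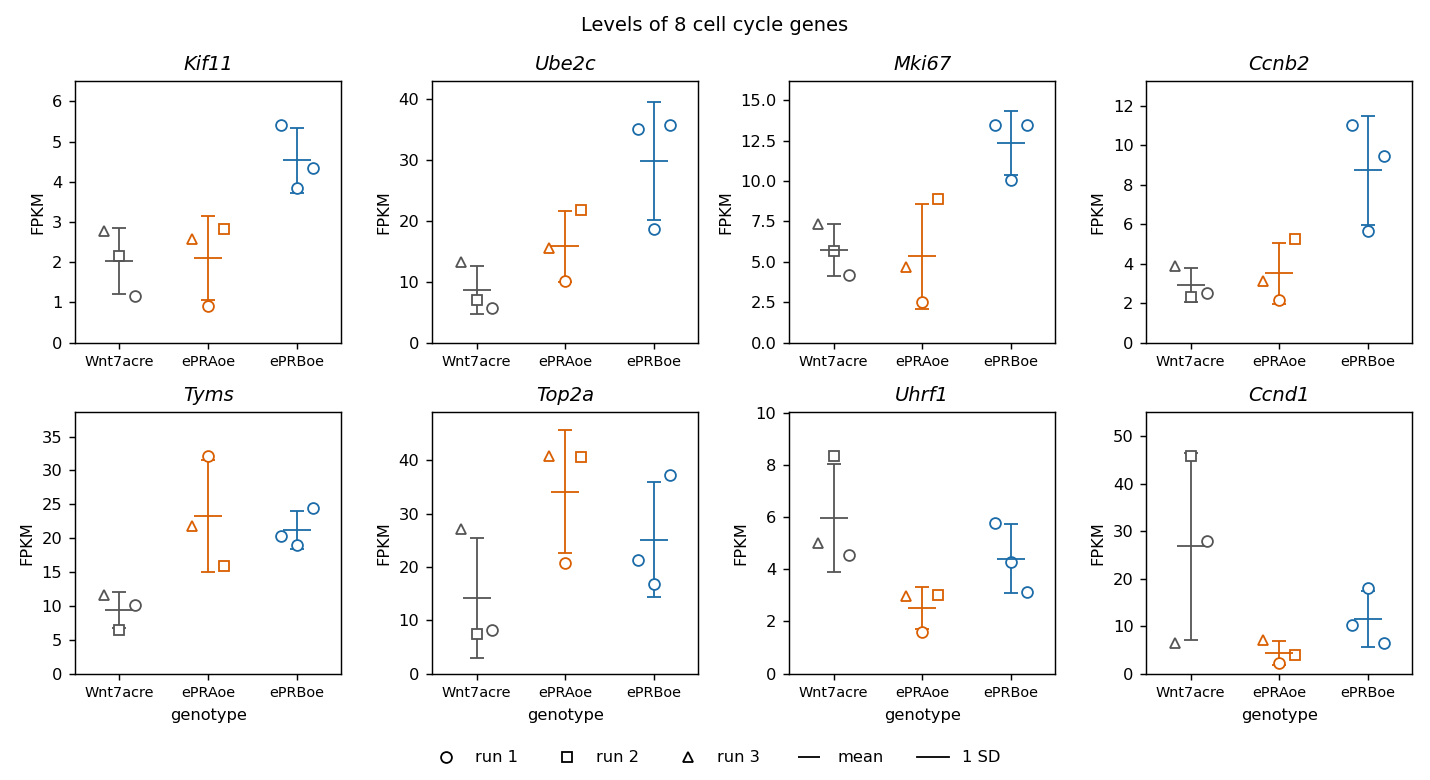
Points are FPKM of 8 genes in single libraries, marked by sequencing run, with the group mean and 1 SD (n = 3); each panel starts at 0 and has its own scale. Kif11, Ube2c, Mki67 and Ccnb2 are highest in ePRBoe, Tyms and Top2a are higher in ePRAoe than in controls of the same run, and Uhrf1 is lowest in ePRAoe.

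With isoform A, the median mitosis gene was near the control level. In ePRAoe against Wnt7acre, 1 of 20 mitosis genes rose, where 7.2% of all tested genes did, and none fell. Of the 20, 12 were positive and 8 negative, where 47.0% of all tested genes were positive. Their median log2 fold change was 0.05, against -0.03 over all genes. The runs did not give the same sign: in run 2, ePRAoe 3 was above Wnt7acre 2 in 17 of 20 genes by a median of 0.64, while in runs 1 and 3 it was above in 6 of 20 each, with medians of -0.15 and -0.26. The 1 gene that rose was Top2a (mm10 chr11:98992943-99024189), which had 27.1, 7.37 and 8.12 FPKM in the Wnt7acre libraries 1 to 3, 40.9, 20.8 and 40.7 in ePRAoe and 21.3, 16.7 and 37.3 in ePRBoe. Within each run the ePRAoe library exceeded the control, although the groups overlapped because Wnt7acre 1 was high. Its log2 fold change was 1.38 ± 0.37, or 2.61-fold (adjusted p = 0.0422). This call was lost without Wnt7acre 2, Wnt7acre 3, ePRAoe 2, ePRAoe 3 or ePRBoe 1, where the adjusted p reached 0.192. It was also lost with no run term, with a block for replicate number in its place, or with no filter.

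Most replication genes had lower values in ePRAoe than in controls, and few of them passed. Of 21 tested, 2 fell, Uhrf1 and Gins2, and 1 rose, Tyms, where 8.98% and 7.2% of all tested genes did so, which is close to the members' shares. With no run term, Tyms was the 1 of the 4 calls in ePRAoe that was kept, and Fen1 was called lower. There were 18 negative and 3 positive values, where 47.0% of all tested genes were positive, and the median log2 fold change of the class was -0.31. In 7 genes every ePRAoe library was below every control, where 16.2% of all tested genes were. Within runs 1, 2 and 3 the medians were -0.36, -0.27 and -0.12. Transcripts of the helicase subunits Mcm2 to Mcm7 had log2 fold changes from -0.75 (Mcm5, adjusted p = 0.0688) to -0.06 (Mcm3), and none passed.

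Uhrf1 (mm10 chr17:56303321-56323486), which guides DNA methylation to newly copied strands, had 5.02, 8.35 and 4.54 FPKM in the Wnt7acre libraries 1 to 3, 2.98, 1.6 and 3 in ePRAoe and 5.79, 4.27 and 3.14 in ePRBoe. The 3 ePRAoe libraries were the lowest of all 9. It fell by 0.97 ± 0.23 on the log2 scale, or 1.96-fold (adjusted p = 0.0277), and the call was lost in 5 of the 9 fits that left out 1 library, namely Wnt7acre 2, Wnt7acre 3, ePRAoe 2, ePRAoe 3 or ePRBoe 2. It was also lost with no run term, with the replicate block in its place, or with only the 2 groups compared. Gins2 (mm10 chr8:120578633-120589304), a subunit of the GINS ring of the replication fork, had 12.9, 24.6 and 19 FPKM in the Wnt7acre libraries 1 to 3, 7.69, 8.86 and 14.6 in ePRAoe and 18, 16.2 and 13.2 in ePRBoe. ePRAoe 3 was above Wnt7acre 1, so the groups overlapped, and within runs ePRAoe was lower each time. It fell by 0.81 ± 0.16 on the log2 scale, or 1.75-fold (adjusted p = 0.0143). That call was lost without Wnt7acre 2, Wnt7acre 3, ePRAoe 2 or ePRAoe 3, and with no run term or the replicate block. The values of Gins2 are uncertain, since 67.3% of its exonic length is shared with Gse1 on the other strand and the strand setting of the counting is not stated in the labels. Gse1 itself differed by -0.15 on the log2 scale (adjusted p = 0.762).

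Tyms, thymidylate synthase, which makes the thymidine nucleotide for DNA, went the other way from most replication genes. It is on mm10 chr5:30058202-30073617 and had 11.6, 6.43 and 10.1 FPKM in the Wnt7acre libraries 1 to 3, 21.7, 32.2 and 16 in ePRAoe and 20.3, 19 and 24.4 in ePRBoe. All 6 libraries with extra receptor were above all 3 controls. The rise in ePRAoe was 1.21 ± 0.17 on the log2 scale, or 2.31-fold (adjusted p = 0.00526), and it was called in all 9 fits that left out 1 library and in 11 of 11 other settings. In ePRBoe its log2 fold change was 0.81 ± 0.21 (adjusted p = 0.0556). Prim1, the primase subunit that starts new strands, had no overlap with controls in either genotype, with log2 fold changes of 0.55 in ePRAoe (adjusted p = 0.0788) and 0.66 in ePRBoe (adjusted p = 0.112).

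Promoters are printed for Tyms and Uhrf1, the replication genes with the smallest p among those matched to a promoter. Gins2 was not matched. The 250 bases before the start of Tyms held none of the 3 elements. The first of the 2 RefSeq promoters of Uhrf1, not shown, held a CCAAT box and no E2F match before the start, outside exons. The second, shown here, held an E2F match and a pair of CCAAT boxes, in capitals.
Tyms, chr5:30073626-30073875, minus strand: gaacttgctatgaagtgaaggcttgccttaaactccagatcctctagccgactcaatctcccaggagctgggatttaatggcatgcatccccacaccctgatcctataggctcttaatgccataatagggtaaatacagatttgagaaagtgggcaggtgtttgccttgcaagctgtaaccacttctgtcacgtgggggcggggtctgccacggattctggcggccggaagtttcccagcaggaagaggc
Uhrf1, chr17:56304063-56304312, plus strand: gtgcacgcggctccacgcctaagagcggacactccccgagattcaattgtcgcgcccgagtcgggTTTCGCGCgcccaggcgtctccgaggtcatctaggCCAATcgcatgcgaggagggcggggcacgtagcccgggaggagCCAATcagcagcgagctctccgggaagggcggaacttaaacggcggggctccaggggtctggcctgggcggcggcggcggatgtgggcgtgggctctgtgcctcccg
Across the class, 10 of 25 replication promoters (40%) held an E2F match, against 2.27% of all promoters and 3.83% of those of tested genes. A CHR match was found in 5 of 25 (20%), against 19.2% of all promoters. Windows follow around an E2F match, in capitals, for the helicase genes Mcm5, Mcm6 and Mcm7, the helicase loader Cdc6 and the polymerase Pola1. Mcm5 held 2 matches before its start and Mcm6 held 3.
Mcm5, chr8:75109350-75109377, plus strand: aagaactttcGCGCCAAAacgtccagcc
Mcm6, chr1:128359735-128359762, minus strand: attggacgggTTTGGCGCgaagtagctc
Mcm7, chr5:138172031-138172058, minus strand: atttcgaaccGCGGGAAAcagggtgtcc
Cdc6, chr11:98908003-98908030, plus strand: ccggtggagaGCGGGAAAtcgcctgggg
Pola1, chrX:93632276-93632303, minus strand: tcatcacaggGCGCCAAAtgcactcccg
Of these 5 genes, Cdc6 was below the level needed for a test and the other 4 were not called in any comparison.

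Pcna and Mcm2, common markers of replicating cells, did not pass in either genotype. Pcna had 48.3, 60.6 and 47.8 FPKM in the Wnt7acre libraries 1 to 3, 42.1, 40.7 and 51.1 in ePRAoe and 48.3, 49.7 and 43.1 in ePRBoe. Its log2 fold change was -0.22 ± 0.12 in ePRAoe (adjusted p = 0.236) and -0.02 ± 0.14 in ePRBoe (adjusted p = 0.941), and the groups overlapped in both. Mcm2, a helicase subunit, had 13.4, 20.2 and 14.3 FPKM in the Wnt7acre libraries 1 to 3, 12.5, 11.4 and 13.6 in ePRAoe and 15.6, 10.9 and 14 in ePRBoe. Its values were -0.31 ± 0.17 in ePRAoe (adjusted p = 0.25) and -0.10 ± 0.20 in ePRBoe (adjusted p = 0.808). In ePRBoe the 21 tested replication genes ranged from -0.69 (Cdt1, a helicase loader) to 0.81 (Tyms). Of these, 13 were positive with the deposited values, where 59.5% of all tested genes were. With median-of-ratios factors 9 of 21 were positive, and with quantile normalization 10. Rrm1 and Rrm2, the subunits of ribonucleotide reductase, had 0.63 (adjusted p = 0.113) and 0.52 (adjusted p = 0.505) in ePRBoe, and Tk1, thymidine kinase, had 0.72 (adjusted p = 0.248). Fen1, the flap nuclease, had -0.79 in ePRAoe (adjusted p = 0.0555), and 78.8% of its exonic length is shared with an antisense gene.

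Of the 6 genes that bring cells into S phase, 5 were tested and 0 were called by limma in any comparison, with an unadjusted p under 0.05 for 2 in ePRAoe and 1 in ePRBoe against controls, where 31.9% and 25.8% of all tested genes had one. Ccnd1, cyclin D1, which starts the cycle in response to growth signals (mm10 chr7:144929931-144939925), had 6.51, 45.9 and 28 FPKM in the Wnt7acre libraries 1 to 3, 6.99, 2.18 and 3.85 in ePRAoe and 10.3, 17.9 and 6.43 in ePRBoe. The controls themselves spread from 6.51 to 45.9 FPKM, and ePRAoe 1 was above the lowest of them. Its log2 fold change in ePRAoe was -2.12 ± 0.64, or 4.36-fold lower, and did not pass (adjusted p = 0.0628). It was called lower without Wnt7acre 1 or without ePRAoe 1, the pair of run 3, in which control and ePRAoe were alike. In ePRBoe its value was -0.78 ± 0.79 (adjusted p = 0.585). Of the exonic length of Ccnd1, 23.4% is shared with LTO1 on the other strand, and the strand setting of the counting is not stated. Cdk4 shares 19.7% with Tspan31 in the same way. E2f1, the activating E2F factor, had 1.10, 2.16 and 1.05 FPKM in controls and 0.638, 0.196 and 0.662 in ePRAoe, with no overlap and a log2 fold change of -0.69 (adjusted p = 0.129). Ccne1, cyclin E1, had 0.77 in ePRBoe (adjusted p = 0.167), and the kinases Cdk2 and Cdk4 had 0.15 and 0.33, none of which passed. Ccne2 stood at 0.401 to 0.944 FPKM, which its own step puts at 17 to 40 reads, and was not tested.

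Between the genotypes with extra isoform B and extra isoform A, 0 of 46 tested members were called by limma, where 0.324% of all tested genes were (0.316% higher and 0.0081% lower), and 25 had an unadjusted p under 0.05, where 18.7% of all tested genes did. The difference in response between the isoforms was therefore not past the threshold for any of the 46 genes tested. The 20 mitosis genes were all higher in ePRBoe than in ePRAoe, by a median log2 of 1.2, against 0.15 over all genes, except that Top2a, at 0.12, turned to -0.44 with no run term and to -0.07 with median-of-ratios factors. In 12 of the 20, every ePRBoe library was above every ePRAoe library, where 16.8% of all tested genes were, and in none was it below, where 5.8% were. Kif11 was nearest to the threshold with 1.43 ± 0.23 (adjusted p = 0.0619), followed by Mki67 with 1.73 ± 0.31 (adjusted p = 0.0706). The replication genes had a median of 0.41, and 18 of 21 were positive, where 66.0% of all tested genes were. These comparisons share libraries with the ones above, and a fit without the controls called 5 of the members higher in ePRBoe: Aurka, Kif11, Mki67, Tpx2 and Mcm5. That fit called 4.88% of all genes it tested.

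The balance of mitosis to replication transcripts had its highest group mean in ePRBoe. The mean log2(FPKM + 1) of mitosis genes minus that of replication genes was -0.86, -1.72 and -1.61 in Wnt7acre 1 to 3, -1.03, -1.26 and -0.72 in ePRAoe and -0.54, -0.82 and -0.35 in ePRBoe. The group means were -1.39 ± 0.47, -1.0 ± 0.27 and -0.57 ± 0.24 (SD, n = 3). All ePRBoe libraries were above all controls, and ePRBoe 2 was below ePRAoe 3. In run 1, ePRBoe stood above both Wnt7acre 3 and ePRAoe 2. No test was made of this score, since the genes were chosen with results of these data known.

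The members of a class also varied together from library to library. Over the 9 libraries, the median Pearson r between pairs of mitosis genes was 0.83 (190 pairs, all positive), between pairs of replication genes 0.39 (231 pairs) and across the classes 0.23 (440 pairs). With the group means taken out, the medians were 0.69, 0.28 and 0.14. These are descriptions over libraries that share genotype, run and capture. Top2a was least like the other mitosis genes, with a median r of 0.41, and Ccnb2 most like them, with 0.91.

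Further genes of the same pathways were read from lists beyond the 48. Of 46 other mitosis genes tested, 5 rose in ePRBoe against controls and none fell, where 6.41% and 2.48% of all tested genes did. Of the 46, 43 were positive, where 59.5% of all tested genes were, and the median log2 fold change of the 46 was 0.75. The called genes were Spc25 (1.24, adjusted p = 0.0307) and Spc24 (1.30, adjusted p = 0.0348) of the kinetochore, the kinesin Kif4 (1.03, adjusted p = 0.0429) and Hmmr (1.32, adjusted p = 0.0447), a spindle protein. The fifth, the kinesin Kif23 (0.84, adjusted p = 0.0492), is named after its value was seen. Of 36 other replication genes tested, 0 were called in ePRBoe by limma and 2 had an unadjusted p under 0.05, below the 25.8% of all tested genes, with a median of 0.17. In ePRAoe, Orc1 of the origin recognition complex (1.06, adjusted p = 0.0435) and Rpa3, which binds single-stranded DNA (0.60, adjusted p = 0.0444), rose, and Chaf1b, which places histones on new DNA, fell by 0.62 (adjusted p = 0.0353). In ePRAoe the other mitosis genes had a median of -0.01, and 2 rose and 2 fell, where 7.2% and 8.98% of all tested genes did. Kif14 (0.86, adjusted p = 0.0169) and Ncaph of condensin (1.30, adjusted p = 0.0216) rose, and Cdca8 of the passenger complex and the factor Mybl2 fell by 0.85 and 0.82 (adjusted p = 0.0304 and 0.0469).

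Among regulators of G1, few genes were called. In the list of other G1 cyclins, kinases and E2F factors, 1 of 14 tested was called in ePRAoe and 0 in ePRBoe by limma, where 16.2% and 8.89% of all tested genes were, and 4 and 6 had an unadjusted p under 0.05. The called gene was Myc. Myc, the growth-promoting factor, had 44.5, 167 and 94.1 FPKM in the Wnt7acre libraries 1 to 3, 20.7, 15.1 and 34.3 in ePRAoe and 37.3, 25.6 and 35.3 in ePRBoe. Every ePRAoe and ePRBoe library was below every control, and it fell in ePRAoe by 1.96 ± 0.28 on the log2 scale (adjusted p = 0.00533). In ePRBoe its value was -1.21 ± 0.35 (adjusted p = 0.0721). Of 16 brakes on the cycle tested, 3 were called in ePRAoe and 2 in ePRBoe, which is near the shares of all tested genes. Cdkn1c, the kinase inhibitor p57, had 19, 8.92 and 23.7 FPKM in the Wnt7acre libraries 1 to 3, 67, 228 and 138 in ePRAoe and 46.4, 63.1 and 96.7 in ePRBoe. It rose 7.62-fold in ePRAoe (log2 2.93 ± 0.40, adjusted p = 0.00447) with no overlap, its value in ePRBoe was 1.29 ± 0.48 (adjusted p = 0.143), and 30.7% of its exonic length is shared with an antisense gene. Ccng1, cyclin G1, rose in ePRAoe (0.86, adjusted p = 0.0101) and ePRBoe (1.08, adjusted p = 0.0148). Cdkn2d, the kinase inhibitor p19, rose in ePRBoe (1.04, adjusted p = 0.0317), and Trp53, which encodes p53, fell by 0.56 in ePRAoe (adjusted p = 0.0463).

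KLF factors and IGF1 signalling are known to link steroid hormones to division of this epithelium. Igf1, the growth factor, which in the uterus is made mainly by stroma, had 7.49, 6.52 and 12.8 FPKM in the Wnt7acre libraries 1 to 3, 19.6, 27 and 45.7 in ePRAoe and 48, 46.6 and 56.9 in ePRBoe. It rose 3.12-fold in ePRAoe (adjusted p = 0.00996) and 4.61-fold in ePRBoe (adjusted p = 0.0124), and all 6 libraries with extra receptor were above the controls. Klf15, a factor that opposes division of this epithelium, rose in ePRAoe (1.11, adjusted p = 0.0172), with 0.97 in ePRBoe (adjusted p = 0.0752). Klf5, a factor of dividing epithelium, fell by 0.75 in ePRBoe (adjusted p = 0.033), with -0.42 in ePRAoe (adjusted p = 0.0742). The remaining genes of the 7 tested were not called.

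Markers of other cells moved with genotype as well. Against controls, 7.2% of all tested genes rose and 8.98% fell in ePRAoe, and 6.41% rose and 2.48% fell in ePRBoe. Of 17 stromal markers, 12 rose in ePRAoe and 15 in ePRBoe. Their levels summed to 111 to 147 FPKM for controls, 273 to 455 FPKM for ePRAoe and 475 to 628 FPKM for ePRBoe. Of 16 immune markers, 7 rose in ePRBoe, while 1 rose and 4 fell in ePRAoe, and the sums were 204 to 421, 144 to 190 and 421 to 506 FPKM. In ePRBoe against ePRAoe, 6 of the 16 immune markers rose, where 0.316% of all tested genes did. Of 8 endothelial markers tested, 2 rose in ePRBoe, with sums of 16.1 to 23.4, 17.6 to 36.1 and 53.3 to 82.4 FPKM over the 9 in the table. No stromal or endothelial marker was at 0 in any library, and 1 immune marker was at 0 in ePRAoe 2. Of 4 smooth muscle markers tested, 1 rose in ePRBoe, and of 16 luminal epithelial markers, 1 rose and 2 fell in ePRBoe and 2 rose and 4 fell in ePRAoe.

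The order of the genotypes in stromal markers was Wnt7acre, ePRAoe, ePRBoe without overlap, and for the mitosis genes the Wnt7acre and ePRAoe libraries overlapped. The immune markers were, as the mitosis genes, highest in ePRBoe, and in both lists Wnt7acre 1 was the highest control. Their mean log2(FPKM + 1) was 3.72, 3.24 and 3.09 in Wnt7acre 1 to 3, 3.19, 2.62 and 2.93 in ePRAoe and 4.14, 4.31 and 3.90 in ePRBoe. ePRBoe 2, the highest library for immune and endothelial markers, was the lowest of its group for mitosis genes. The part of these other cells in the levels of mitosis genes was not tested, and in such bulk samples more cells of a type and more RNA per cell cannot be told apart.

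**Figure D5:**
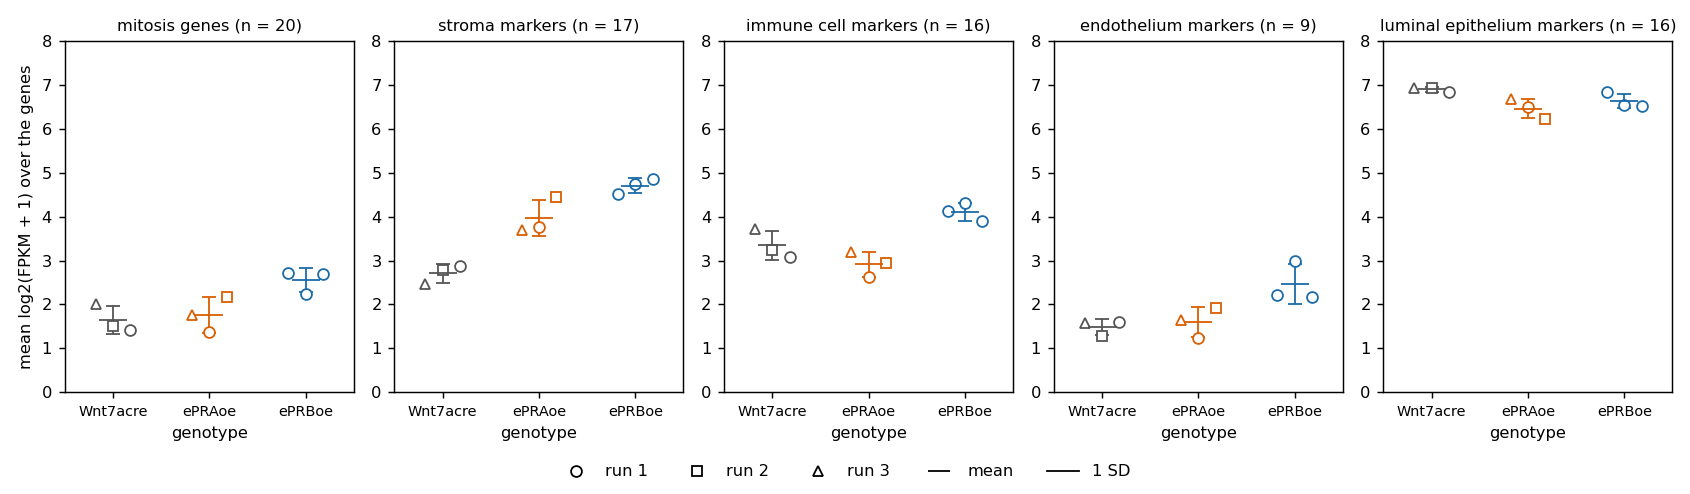
Points are libraries, marked by sequencing run, at the mean log2(FPKM + 1) over the mitosis genes and over markers of stroma, immune cells, endothelium and luminal epithelium, with the group mean and 1 SD (n = 3). The markers of stroma, immune cells and endothelium are highest in ePRBoe, as the mitosis genes are.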

How the data were processed

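RNA-seq of laser-captured uterine luminal epithelium gave 1 deposited table of FPKM for 15158 symbols in 9 libraries. Per the submitters' processing notes, the authors used STAR 2.5.2b, featureCounts 1.5.0-p1 of Subread, edgeR 3.28.0, limma 3.42.2 and mm10; which annotation, strand setting and lengths they used is not given in the sources at hand. Groups came from the labels. The members and all lists were chosen with earlier results of these data known, and the classes were assigned by known roles.

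Tests covered genes that reached 1 FPKM in 3 or more libraries (12347 of 15158, and 46 of the 48 members; Cdc6 and Ccne2 were not). Values were log2(FPKM + 1), fitted with limma 3.58.1 in R 4.3.3 (trended prior, 4 residual and 3.64 prior degrees of freedom) with genotype and run as terms, two-sided, and adjusted by Benjamini-Hochberg over all tested genes. In simulated data of 12347 genes, 100 were moved by 1 and 100 by 2 on the scale of log2(FPKM + 1). This test called 36% and 77% of them in ePRAoe, and 19% and 69% in ePRBoe. Far fewer genes were moved than were called in the data, so these rates need not hold for the data. Depth is known only from steps between low values: 392 of 860 low genes lay on 1 step within 0.0006 FPKM, and no counting interval was computed.

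Named genes were the members called in any comparison with Mki67, Top2a, Pcna, Mcm2, Ccnd1, Cdk1 and Ccnb1, up to 4 called genes of each other list by smallest p, and promoters of the 2 replication and 2 mitosis genes with the smallest p among those with a RefSeq promoter. Other members were named beside their class. Gene positions are from GENCODE M21 and promoters from RefSeq. Alternatives were the run term, a replicate block, the pseudocount, the filter, the scaling, robust variance, fewer groups or runs, and leaving out each library.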

Additional observations from a re-analysis of the deposited data

How the results depend on the processing

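With no run term, members called numbered 2 in ePRAoe against Wnt7acre (main 4, of which Tyms was kept, with Fen1 new), genes called 1786 in ePRBoe against Wnt7acre (main 1098) and 7 in ePRBoe against ePRAoe (main 40). The replicate numbers did not pair the libraries (2 of 9 same-numbered pairs had a correlation above 0.1, range -0.23 to 0.17). With a replicate block in place of the run term, 1 member and 1113 genes were called in ePRAoe against Wnt7acre (main 4 and 1998), and 4 genes in ePRBoe against ePRAoe. In ePRBoe against Wnt7acre the block kept 4 of the 9 members called, with 6 mitosis and 1 replication gene called in all. With only the 2 groups compared, 1116 genes were called in ePRAoe against Wnt7acre, and 5 members and 585 genes in ePRBoe against ePRAoe, which run 1 alone put at 4 and 491. A mean of at least 5 FPKM left 2 members and 653 genes called in ePRBoe against Wnt7acre and tested only 4 mitosis genes. In the same comparison, quantile normalization left 3 members and rescaling each library to the same, larger sum left 5. In ePRBoe against ePRAoe, genes called were 19 with no filter, 22 with median-of-ratios factors, 15 with quantile normalization and 25 rescaled. Mitosis minus replication in ePRAoe was -1.28 with a pseudocount of 0.1. The cause of these moves was not tested.

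Leaving out 1 library at a time gave 1 to 8 members and 723 to 2705 genes in ePRAoe against Wnt7acre, 0 to 14 and 231 to 1604 in ePRBoe against Wnt7acre, and 0 to 6 and 0 to 576 in ePRBoe against ePRAoe. Log2 values that changed sign were all uncalled in the full fit. Over these fits, Mki67 in ePRAoe spanned -0.57 to 0.0062 (without Wnt7acre 3 or ePRAoe 2) and Ccnb1 in ePRAoe -0.046 (without Wnt7acre 2 or ePRAoe 3) to 0.50. In ePRBoe against Wnt7acre, Pcna spanned -0.062 to 0.037 (without ePRBoe 3), Mcm2 -0.20 to 0.037 (without ePRBoe 2) and Ccnd1 -1.33 to 0.28 (without Wnt7acre 3). Top2a in ePRBoe against ePRAoe was -0.44 with no run term or the replicate block, -0.067 with median-of-ratios factors, -0.082 without Wnt7acre 1 or ePRAoe 1, -0.0050 without ePRAoe 2 and -0.19 without ePRBoe 3, with 0.36 as the highest value, without ePRBoe 2. Depth limits the low genes: in their lowest library E2f1 had about 7 reads, Ccne1 about 11 and Cdc20 about 12.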

Other observations

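Some genes of either class were higher in both genotypes with extra receptor than in all controls, chosen here after their values were seen. Tyms, Prim1, Orc1, Ncaph and Kif14 had no overlap between controls and either genotype. Of all tested genes, 12.6% were above controls without overlap in ePRAoe and 23.5% in ePRBoe. Ncaph, a condensin subunit that compacts chromosomes, had 16.9, 7.08 and 11.7 FPKM in controls, 21.1, 37.3 and 31.0 in ePRAoe and 22.9, 24.4 and 22.3 in ePRBoe. Its log2 fold change was 1.30 in ePRAoe (adjusted p = 0.0216 in limma) and 0.78 in ePRBoe (adjusted p = 0.207). Orc1 had 3.89, 3.18 and 4.34 FPKM in controls, 5.71, 10.8 and 11.4 in ePRAoe and 5.0, 9.64 and 9.06 in ePRBoe. Kif14, a kinesin of cytokinesis, had 0.912, 0.392 and 0.538 FPKM in controls, 2.37, 1.85 and 1.53 in ePRAoe and 1.44, 1.77 and 1.96 in ePRBoe, with a log2 fold change of 0.80 in ePRBoe (adjusted p = 0.0584).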
